A study of Danio rerio with 4 samples.

Results

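The genes described here encode the nuclear subunits of mitochondrial complex I, the NADH:ubiquinone oxidoreductase, in the livers of fasted zebrafish larvae. They were taken by symbol, as every listed gene that starts with nduf, leaving out the assembly factors (ndufaf) and the ndufa4 paralogues. There were 34 of them among the 16405 genes listed. The list was chosen with earlier results of these data known. One member, NDUFB1, is listed in capitals. RNA came from dissected whole livers at 6 dpf, with 2 WT libraries (replicates 1 and 4) and 2 pex5-/- libraries (replicates 1 and 2, labelled pex5 KO), and all larvae were fasted. The pex5-/- line carries a single CRISPR/Cas9 allele, a small deletion passed on by a founder and predicted to truncate Pex5, the receptor that carries enzymes into the peroxisome. The number of livers behind each library is not given in the sources used here, nor is it stated that libraries of a genotype came from separate clutches, so p-values measure only the spread between these samples.

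Complex I is the entry point for most electrons of the respiratory chain. It takes electrons from NADH, passes them along a chain of iron-sulfur clusters to ubiquinone and uses the energy to pump protons across the inner mitochondrial membrane. The enzyme is L-shaped. Its NADH arm oxidises NADH, its quinone arm reduces ubiquinone, and its membrane arm pumps protons. The catalytic core is conserved from bacteria and is encoded partly in the nucleus and partly in the mitochondrial genome, whereas the accessory subunits surround the core and are all encoded in the nucleus. Subunits were placed in arms as known from the mammalian enzyme, which gave 7 genes in the NADH arm, 8 in the quinone arm, 7 in the proximal and 10 in the distal membrane arm, and 2 genes for the acyl carrier protein, which occurs in both the quinone and the membrane arm. Of the 34 genes, 6 encode core and 28 accessory subunits. No listed gene bears the symbol ndufs1, ndufa13, ndufb4, ndufa9b or ndufs8b, so these are absent from the sums by part. Whether any of them is listed under another symbol was not analysed here.

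Values are given in TMM, the count of UMI-deduplicated reads after the authors' scaling for library size. A single read was worth 0.691 to 0.785 TMM. Because each RNA molecule is tagged once near its 3' end, a gene's level does not scale with transcript length. The libraries held 1217737 to 1425834 reads, and the 34 genes accounted for 2501 and 2402 of them in WT replicates 1 and 4, and for 3114 and 3271 in pex5-/- replicates 1 and 2. All 34 genes had reads. The 27 whose average over the 4 libraries reached 10 TMM were tested. In the least covered library, the counting error of these 27 tested genes was between 6.59% and 21.8%. In bulk RNA, fewer cells of a type and less RNA per cell cannot be told apart.

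Hepatocyte identity was clear in every library. All 10 hepatocyte markers had reads, and their summed level was between 59830 and 75501 TMM. Of these markers, 3 had a higher and 7 a lower mean in pex5-/- (median log2 difference -0.22), and hpxb, a hemopexin gene, was at 1950 TMM in WT replicate 1 and at 111 to 147 TMM elsewhere. Other tissues differed between libraries. All 8 listed heart muscle markers had a lower mean in pex5-/-, with sums of 175 and 222 TMM in WT and of 18.8 and 35.3 TMM in pex5-/- livers, and cmlc1, a cardiac myosin light chain, was at 0 in pex5-/- replicate 1. All 6 red blood cell markers had a higher mean in pex5-/-, with sums of 593 and 349 TMM against 1029.7 and 930.4 TMM, although alas2 was at 0 in 3 of the 4 libraries. Hbae3 and hbbe2 did not overlap between genotypes, whereas hbae1.1, slc4a1a and hbbe1.1 did. Hbbe1.1 was at 56.8 and 44.0 TMM in WT and at 27.1 and 111 TMM in pex5-/- livers. Skeletal muscle markers summed to 2437 TMM in WT replicate 4 and to 359 to 1028 TMM elsewhere, exocrine pancreas markers to 2242 TMM in WT replicate 4 and to 837 to 1454 TMM elsewhere, and intestine markers to 254 TMM in pex5-/- replicate 1 and to 9.68 to 28.3 TMM elsewhere. These tissues hold complex I as well, and their part in the results was not tested. Libraries of unlike genotype could be closer than those of the same one: over the 3349 genes tested, WT replicate 1 correlated with pex5-/- replicate 2 at r = 0.927 (Pearson) and with the other WT library at r = 0.826. The pex5 transcript was not analysed here.

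Complex I subunit genes were together higher in fasted pex5-/- livers. The 34 genes summed to 1775 and 1886 TMM in the WT libraries and to 2340.4 and 2261 TMM in the pex5-/- libraries, a 1.26-fold higher mean (1830.5 ± 78.8 against 2300.8 ± 56.1 TMM, SD, n = 2 libraries each). The groups did not overlap, and the difference of 0.33 on the log2 scale exceeded the gap within each genotype. An exact two-sided permutation test over the 4 libraries gave p = 0.33, the smallest this design allows. With 1 library left out, the log2 difference was 0.29 without WT replicate 1 and 0.37 without WT replicate 4. It was 0.31 without pex5-/- replicate 1 and 0.36 without pex5-/- replicate 2. All genes together summed to a 1.07-fold higher TMM in pex5-/-. With every library at the same total, the summed difference of complex I was 0.23 on the log2 scale, and 0.20 when the mitochondrial genome was also left out of the totals. The order was the same relative to the nuclear transcriptome alone, of which complex I subunits took 0.298% and 0.314% of the reads in WT and 0.352% and 0.349% in pex5-/- livers.

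The difference was spread over most of the genes and was small for each. On the log2(TMM + 1) scale, the pex5-/- mean was the higher one for 28 of the 34 (82.4%), against 47.3% of all genes with reads, and the lower one for 6. Among the 27 tested genes, 24 were higher, against 50.5% of all genes tested, and the median log2 difference was 0.35 (0.00 over all genes tested), with a range of -0.31 to 0.77. Both pex5-/- libraries exceeded both WT libraries for 14 of the 27 genes (51.9%, against 16.9% of all genes tested), and none lay entirely below (0 of 27, against 13.5%). For 11 of the 27 genes the difference was also larger than the gap between the libraries of either genotype, against 11.3% of all genes tested. The count of genes with both pex5-/- libraries above both WT libraries was 12 with every library at the same total. It was 11 when the mitochondrial genome was also left out of the totals. The matching share of all genes under these scalings is not given here. When every library was scaled to the same total, 21 genes were higher and 6 lower. That scaling moved the median of all genes to -0.09, and 23 of the 27 complex I genes lay above the median of all genes under this scaling as under the deposited one. Scaling whole libraries shifts all genes by nearly the same amount, so this count could hardly change and is no separate support.

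Single genes did not pass the test. The limma fit over the 3349 genes, with Benjamini-Hochberg adjustment, called 0 complex I genes and 0 genes in all (0% called), and the adjusted p was 1.00 for each of the 27 complex I genes. At an unadjusted p under 0.05 there was 1 complex I gene, ndufs5, which is 3.70% of 27, against 3.61% of all genes tested. With voom weights on the reads, limma called 0 genes as well, and 94 at an unadjusted p under 0.05. Leaving out WT replicate 1 gave 12 called genes over the whole table and leaving out WT replicate 4 gave 3, none of which encodes a complex I subunit. In these fits the spread came from the pex5-/- pair alone, and the lone WT library was assumed to vary like it.

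**Figure D1:**
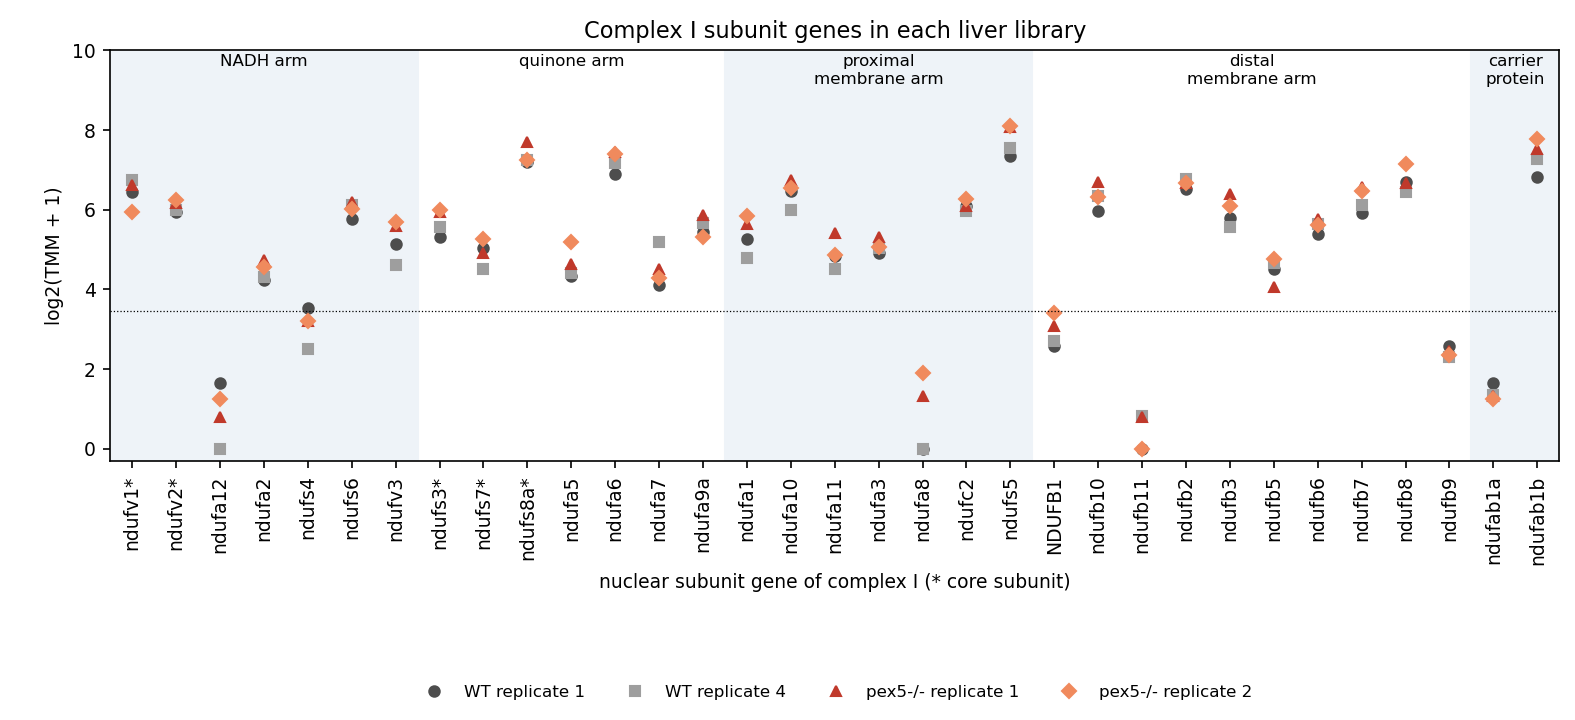
Level of 33 nuclear complex I subunit genes as log2(TMM + 1) in the 4 libraries (gray, WT; red and orange, pex5-/-), ordered by enzyme part, with core subunits marked by an asterisk and the minimum mean of 10 TMM as a dotted line. The pex5-/- symbols lie above both WT symbols for 14 of the 26 plotted genes past the minimum, such as ndufs5 and ndufb7, and 7 genes lie under it.

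In the NADH arm, 4 of the 5 tested genes were higher on average in pex5-/- and ndufv1 was lower. Ndufv1 (ENSDARG00000036438, chromosome 19), the core subunit that binds NADH and the flavin FMN, had 85.9 and 106 TMM in the WT libraries and 97 and 60.8 TMM in the pex5-/- libraries. The genotypes overlapped, and the low value was that of pex5-/- replicate 2. The log2 difference of ndufv1 was -0.31 (95% interval -1.17 to 0.55 in limma), and without pex5-/- replicate 2 it was 0.02. Ndufv2 (ENSDARG00000013044, chromosome 2), its partner core subunit with an iron-sulfur cluster, had 61.0 and 62.8 TMM in WT and 70.6 and 75.3 TMM in pex5-/- livers. Here the groups did not overlap, with a log2 difference of 0.23 (-0.41 to 0.88). The ratio of ndufv1 to ndufv2, looked at after the values were seen, was 1.41, 1.69 and 1.37 in WT replicate 1, WT replicate 4 and pex5-/- replicate 1, and 0.807 in pex5-/- replicate 2.

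The accessory subunit ndufv3 (ENSDARG00000090389, chromosome 9) is a small protein bound to the flavin-containing part. With all libraries in the fit, it had the highest log2 difference of the 27 genes. It was not the highest without WT replicate 4, nor without pex5-/- replicate 2. It had 34.1 and 23.6 TMM in WT and 47.3 and 50.5 TMM in pex5-/- livers. The groups did not overlap, and the mean was 69.8% higher (28.8 ± 7.43 against 48.9 ± 2.2 TMM, SD, n = 2 libraries each). The log2 difference was 0.77 (-0.01 to 1.54, adjusted p = 1.00 from limma), and it rested on 30 to 73 reads per library. Without WT replicate 4, the lowest library, it was 0.51. In the same setting ndufab1b (0.84), ndufs5 (0.72), ndufs3 (0.65), ndufb7 (0.60), ndufa5 (0.58), ndufb10 (0.54) and ndufa6 (0.53) lay above it. Without pex5-/- replicate 2, ndufv3 was at 0.72 and ndufa11 lay above it at 0.75.

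Ndufa2, which has a thioredoxin-like fold, had 17.7 and 18.8 TMM in WT and 25.6 and 22.8 TMM in pex5-/- livers, again without overlap, and differed by 0.38. The zinc-binding subunit ndufs6 overlapped between genotypes, with 53.2 and 68.3 TMM in WT and 72.2 and 64.3 TMM in pex5-/- livers. Its log2 difference of 0.17 was -0.0044 without WT replicate 1. The remaining NADH arm genes were thinly covered. Ndufs4, needed in mammals for a stable NADH arm, was counted 15 and 6 times in WT against 11 and 12 times in pex5-/- livers, and ndufa12, which joins late in assembly, had at most 3 reads in any library, so that no difference was detectable at this depth.

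The quinone arm held genes that overlapped between genotypes and genes that did not. Ndufs3 (ENSDARG00000015385, chromosome 7), a core subunit and an early part of the assembling arm, had 39.0 and 46.3 TMM in WT and 60.9 and 62.9 TMM in pex5-/- livers. Both pex5-/- libraries were above both WT libraries, and the log2 difference was 0.53 (-0.14 to 1.21).

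The core subunits ndufs7 and ndufs8a, which carry the last iron-sulfur clusters before ubiquinone, overlapped between genotypes. Ndufs7 had 31.9 and 22.0 TMM in WT and 29.3 and 37.3 TMM in pex5-/- livers, a log2 difference of 0.31 that was 0.05 without WT replicate 4 and 0.14 without pex5-/- replicate 2. Ndufs8a had 146 and 152 TMM in WT and 208 and 151 TMM in pex5-/- livers, a log2 difference of 0.25 that was carried by pex5-/- replicate 1 and was 0.02 without it.

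Among the accessory genes of the quinone arm, ndufa6 and ndufa5 were higher in both pex5-/- libraries. Ndufa6, a protein of the LYR family that holds an acyl carrier protein on the enzyme, had 119 and 143 TMM in WT and 175 and 169 TMM in pex5-/- livers, with a log2 difference of 0.40 that was 0.26 without WT replicate 1. Ndufa5, a small subunit of the quinone arm, had 19.2 and 20.4 TMM in WT and 24.1 and 35.3 TMM in pex5-/- livers, with a log2 difference of 0.54 that was 0.27 without pex5-/- replicate 2. Ndufa9a, at the junction of the arms, was at 42.6 and 50.3 TMM in WT and at 57.9 and 38.7 TMM in pex5-/- livers. The pex5-/- libraries lay on both sides of the WT libraries, and the log2 difference was 0.03. Ndufa7 had 16.3 and 35.3 TMM in WT and 21.8 and 18.7 TMM in pex5-/- livers, so that its log2 difference of -0.24 came from WT replicate 4. Without that library it was 0.29.

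The proximal membrane arm, the part of the membrane arm next to the hydrophilic arms, had 6 tested genes, and all 6 were higher on average in pex5-/-. Both pex5-/- libraries exceeded both WT libraries for 5 of them (83.3%, against 16.9% of all genes tested), and the median log2 difference was 0.44. The genes of this arm summed to 413 and 391.9 TMM in WT and to 573 and 559.9 TMM in pex5-/- livers, 1.41-fold higher. Ndufs5 (ENSDARG00000006290, chromosome 19), a subunit with paired cysteines on the intermembrane space side, had 163 and 186 TMM in WT and 268 and 272 TMM in pex5-/- livers. The means were 174.7 ± 16.2 and 270.0 ± 2.37 TMM (SD, n = 2 libraries each), 54.6% higher in pex5-/-. With 230 to 393 reads per library it was also the best covered of the 34 genes, and its log2 difference was 0.63 (0.02 to 1.24, unadjusted p = 0.0456 and adjusted p = 1.00 from limma).

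Ndufa1 (ENSDARG00000036329, chromosome 14), a small membrane-anchored subunit, had 37.6 and 26.7 TMM in WT and 48.9 and 56.0 TMM in pex5-/- livers. The groups did not overlap, and the log2 difference was 0.70 (-0.06 to 1.47), or 0.47 without WT replicate 4. Ndufa11 was close to overlap, with 27.7 and 22.0 TMM in WT and 42.1 and 28.3 TMM in pex5-/- livers, and differed by 0.47, or by 0.19 without pex5-/- replicate 1. Ndufa10, a matrix subunit with the fold of a nucleoside kinase, had 88.0 and 62.8 TMM in WT and 107 and 92.6 TMM in pex5-/- livers and differed by 0.41, or by 0.17 without WT replicate 4. Ndufa3 was also close to overlap, with 29.1 and 32.2 TMM in WT and 39.1 and 32.5 TMM in pex5-/- livers, and differed by 0.21. For both ndufa11 and ndufa3 the gap between the genotypes was smaller than the TMM worth of a single read. Ndufc2 overlapped between genotypes and differed by 0.14. The intermembrane space subunit ndufa8 was at 0 reads in both WT libraries and at 2 and 4 in the mutants, near the floor of 3 reads, and no fold was computed.

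The distal membrane arm, the far end of the proton pump, was mixed. Of its 7 tested genes, 6 were higher on average in pex5-/-, against 50.5% of all genes tested. In 2 of the 7 the groups did not overlap (28.6%, against 16.9% of all genes tested), and the median log2 difference was 0.35. Ndufb7 (ENSDARG00000033789, chromosome 1), on the intermembrane space side, had 59.6 and 68.3 TMM in WT and 94.7 and 87.8 TMM in pex5-/- livers, a log2 difference of 0.51 (-0.15 to 1.17). Ndufb3 (ENSDARG00000075709, chromosome 9), which crosses the membrane, had 54.6 and 46.3 TMM in WT and 82.7 and 67.1 TMM in pex5-/- livers, a log2 difference of 0.56 (-0.15 to 1.27). These were the tested genes of this arm without overlap.

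The other tested genes of the distal membrane arm overlapped between genotypes. Ndufb8, a membrane-spanning subunit, had 102 and 86.4 TMM in WT and 101 and 141 TMM in pex5-/- livers. Ndufb10, another intermembrane space subunit, had 61.7 and 80.1 TMM in WT and 103 and 78.8 TMM in pex5-/- livers. Ndufb5 was at 22.0 and 24.3 TMM in WT and at 15.8 and 26.3 TMM in pex5-/- livers, and its log2 difference of -0.17 was 0.18 without pex5-/- replicate 1. Ndufb2, at 90.1 and 108 TMM in WT and at 101 and 101 TMM in pex5-/- livers, differed by 0.03, and ndufb6 by 0.17. The genes of this arm under 10 TMM were thinly covered. NDUFB1 was read 7 times in each WT library and 10 and 14 times in the pex5-/- libraries, without overlap. The counting error at 7 reads was 37.8%. Ndufb9, a LYR protein like ndufa6, was read 7 and 5 times in WT and 6 times in each pex5-/- library, and ndufb11 at most 1 time in any library.

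The mitochondrial acyl carrier protein, which carries growing fatty acid chains for lipoic acid synthesis and is also a structural subunit of complex I, is encoded by a pair of genes in zebrafish. Nearly all reads came from ndufab1b (ENSDARG00000014915, chromosome 3), which had 111 and 155 TMM in WT and 184 and 217 TMM in pex5-/- livers. The groups did not overlap, the mean was 50.8% higher (133 ± 30.6 against 201 ± 23.3 TMM, SD, n = 2 libraries each), and the log2 difference was 0.60 (-0.14 to 1.34, adjusted p = 1.00 from limma). WT replicate 1 was the lowest, and without it the log2 difference was 0.37. The other copy, ndufab1a, was read 3 and 2 times in WT and 2 times in each pex5-/- library, and its lower mean lay within counting error.

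Some of these genes share their locus. In the RefSeq annotation of GRCz12tu, 11 of the 34 overlap another gene, among them ndufv2, ndufa6, ndufa11, ndufb3, ndufb5, ndufb7 and ndufb10, and the use of strand in counting is not stated, so reads of a neighbour cannot be told apart there. Among the 17 tested genes without an overlap, an alternative chosen after seeing the data, 15 were higher and the median log2 difference was 0.35.

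**Figure D2:**
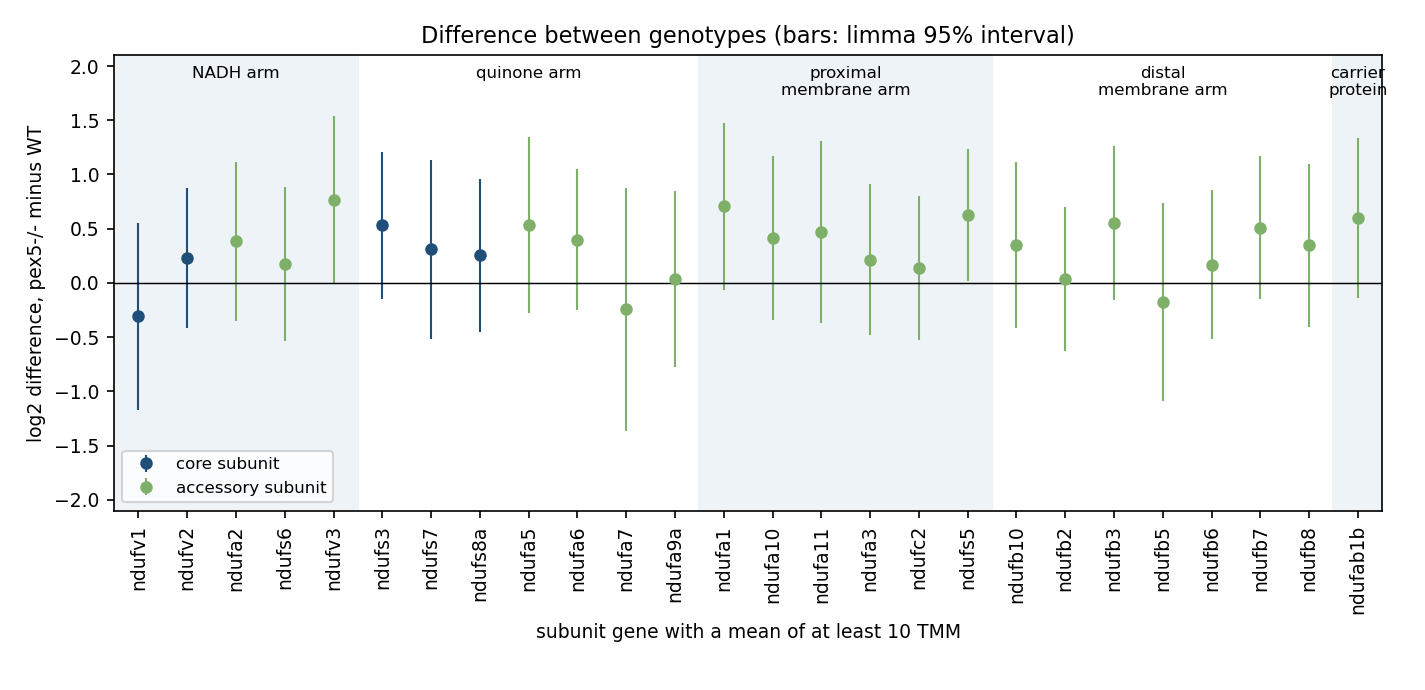
Difference of the mean log2(TMM + 1) of 26 tested genes, pex5-/- minus WT, with the 95% interval of limma and colored by core or accessory subunit. Of the points, 23 lie above 0, and the interval of ndufs5 is the one that leaves out 0.

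The parts of the enzyme did not all differ by the same amount. The summed level was 1.1-fold higher in pex5-/- for the NADH arm, 1.18-fold for the quinone arm, 1.41-fold for the proximal and 1.23-fold for the distal membrane arm, and 1.5-fold for the acyl carrier protein. The NADH arm sum overlapped between genotypes, at 265 and 284 TMM in WT and 322 and 283 TMM in pex5-/- livers. The sums of the other parts did not overlap. The NADH arm sum includes ndufv1, at 85.9 and 106 TMM in WT and 97 and 60.8 TMM in pex5-/- livers. The other 4 tested genes of this arm were higher on average in pex5-/-. As a share of all complex I subunit TMM, the NADH arm took 14.9% and 15.1% in WT and 13.7% and 12.5% in pex5-/- livers. Core subunits took 27.7% and 26.6% in WT and 24.9% and 22.6% in pex5-/- livers. The mean of the accessory genes minus that of the core genes, on the centred log2 scale, was -0.13 and -0.03 in WT and 0.05 and 0.11 in pex5-/- livers. These shares did not overlap between genotypes, but with 2 libraries each an exact permutation test could not go below 0.33. The NADH arm and the 6 core genes both include ndufv1, which was lowest in a single library. Shares without ndufv1 are not given here. The median log2 difference was 0.24 for the core and 0.38 for the accessory genes. The medians by arm moved with single libraries. That of the distal membrane arm was 0.17 without WT replicate 1 and 0.18 without pex5-/- replicate 1, and that of the proximal membrane arm was 0.27 without pex5-/- replicate 1. The median of the NADH arm, 0.23 with all libraries, was 0.35 without WT replicate 4.

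**Figure D3:**
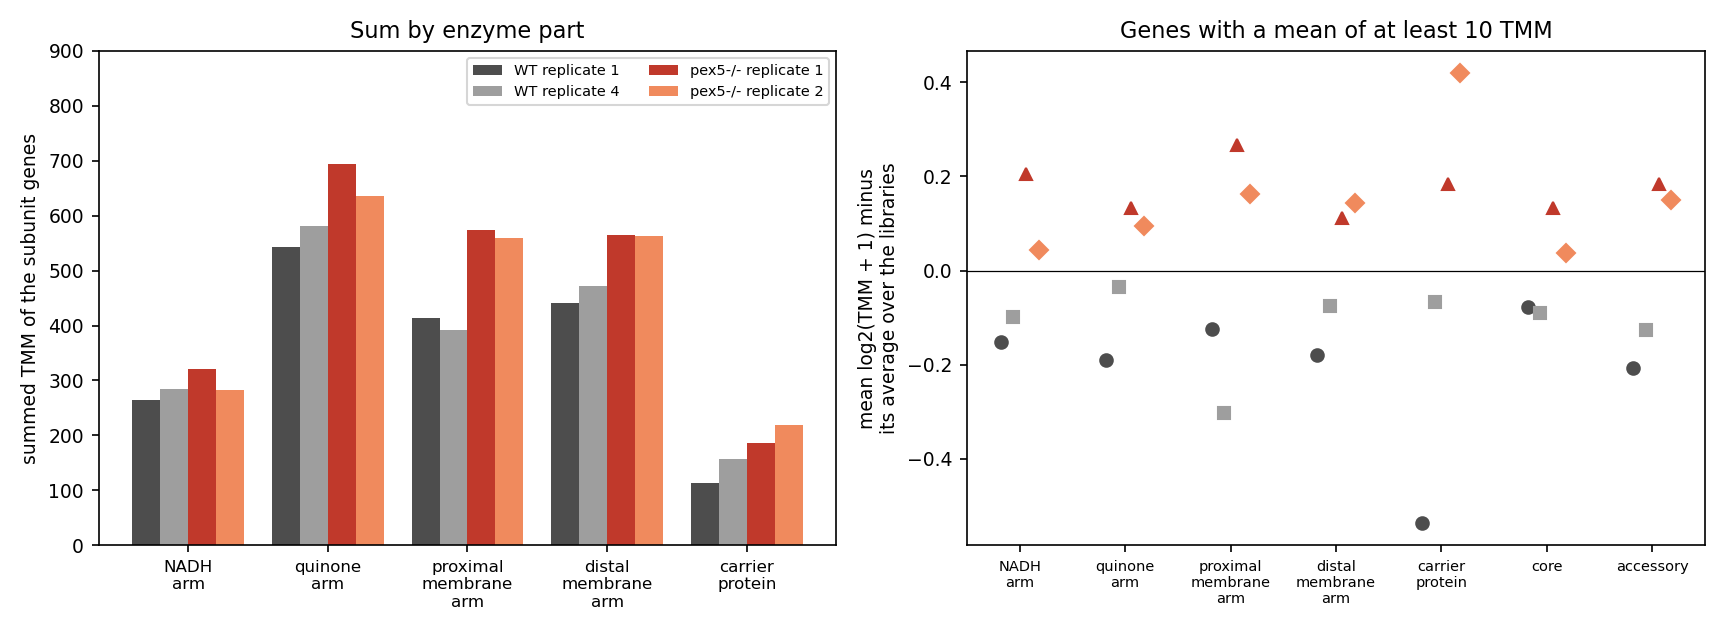
Left, summed TMM of the subunit genes of each enzyme part in the 4 libraries, as bars from 0. Right, mean log2(TMM + 1) of the tested genes in each part, and in core and accessory genes, minus its average over the libraries, with the symbols of the libraries colored as on the left. As a fold, not as a height of the bars, the sums differ most for the proximal membrane arm and the acyl carrier protein (1.41-fold and 1.5-fold). The NADH arm sums overlap, and they include ndufv1, which was low in pex5-/- replicate 2.

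Apart from ndufs1, a symbol that no listed gene bears, the other core subunits of the enzyme are encoded in the mitochondrial genome. Of the 7 mt-nd transcripts, 4 had a higher and 3 a lower mean in pex5-/-, and the median log2 difference was 0.06. Only mt-nd5 lay higher in both pex5-/- libraries (1 of 7, or 14.3%, against 16.9% of all genes tested). It had 568 and 477 TMM in WT and 846 and 671 TMM in pex5-/- livers (log2 difference 0.53, adjusted p = 1.00 from limma). The most abundant, mt-nd4, had 13222 and 20609 TMM in WT and 18805 and 12855 TMM in pex5-/- livers, so that the highest and the lowest library came from different genotypes. Reads of mt-nd6, on the opposite strand, can include those of its neighbours for the same reason. The ratio of mt-nd to nuclear subunit TMM was 16.3 and 20.1 in WT and 16.8 and 12.9 in pex5-/- livers, with overlap between genotypes.

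Beside the other respiratory chain complexes, complex I lay between complex III and complex IV. The median log2 difference of the tested genes was 0.33 for complex II (3 genes), 0.08 for complex III (7 genes), 0.45 for complex IV (15 genes) and 0.36 for ATP synthase (16 genes). Both pex5-/- libraries exceeded both WT libraries for 1, 2, 11 and 10 of these genes, against 16.9% of all genes tested. The ratio of summed complex I to summed complex III TMM was 2.34 and 2.03 in WT and 2.25 and 2.48 in pex5-/- livers, and that to ATP synthase was 0.284 and 0.243 in WT and 0.282 and 0.299 in pex5-/- livers. Both ratios overlapped between genotypes, and the differences between complexes were not tested.

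**Figure D4:**
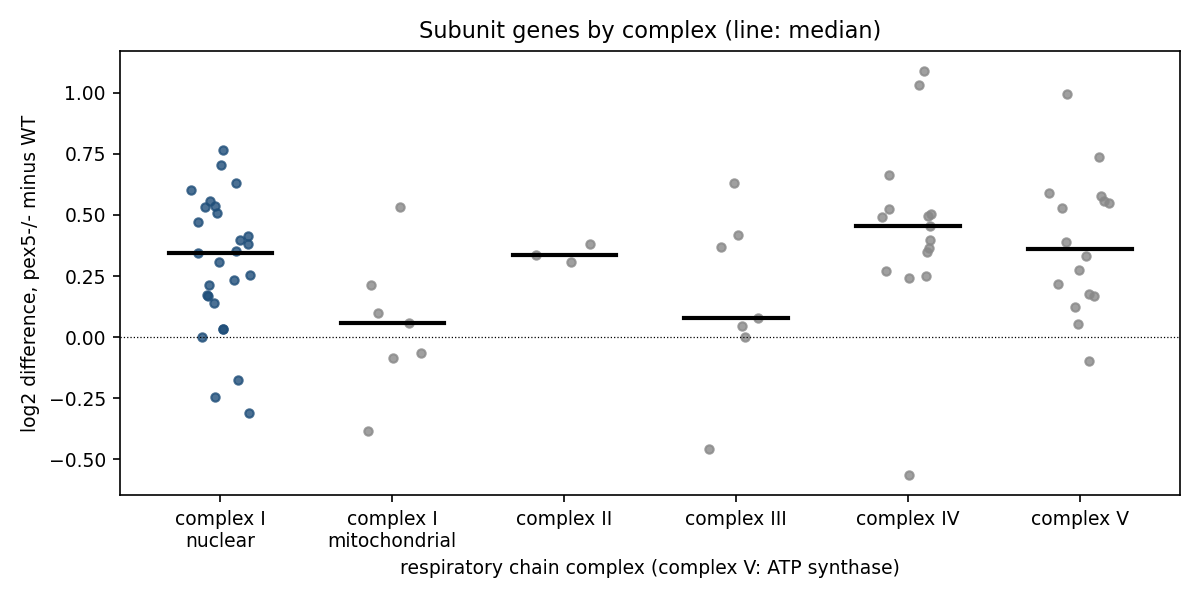
Log2 difference (pex5-/- minus WT) of each tested subunit gene, by respiratory chain complex, with the median as a line. Nuclear complex I genes center on 0.35 and the mitochondrially encoded ones on 0.06, while complex IV centers on 0.45 and complex III on 0.08.

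Assembly of complex I depends on factors that leave the finished enzyme. Of 16 such genes listed, 5 were tested, 4 of them higher and 1 lower in pex5-/-, and limma called 0 of them. Ndufaf1, which acts on the early membrane arm, had 24.8 and 35.3 TMM in WT and 36.1 and 33.9 TMM in pex5-/- livers, with overlap. Timmdc1, a membrane arm factor, differed by 0.01. Nubpl, which delivers iron-sulfur clusters to complex I, had 12.8 and 13.3 TMM in WT and 6.01 and 9.68 TMM in pex5-/- livers, the lower values resting on 8 and 14 reads (log2 difference -0.70, adjusted p = 1.00 from limma). The other assembly factors tested, tmem126a and tmem70, differed by 0.27 and 0.55. Tmem126a was close to overlap, with 14.2 and 16.5 TMM in WT and 21.0 and 16.6 TMM in pex5-/- livers. Tmem70 overlapped, with 5.68 and 18.1 TMM in WT and 15.8 and 15.2 TMM in pex5-/- livers. Its lowest value, in WT replicate 1, rested on 8 reads.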

How the data were processed

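The libraries were made by CEL-Seq2, which primes polyadenylated RNA at its tail and marks each molecule with a UMI. According to the submitters' notes and methods, the authors extracted UMIs with UMI-tools (ver.1.1.1), trimmed with Trim Galore (ver.0.6.7), mapped to GRCz11 with HISAT2 (ver.2.2.1), counted with featureCounts (ver.2.0.1), removed UMI duplicates, applied TMM scaling in edgeR and deposited log2(TMM + 1) values. The annotation release is not given in the sources used here. Undoing the logarithm showed that 100% of a library's values were whole numbers of reads (tolerance 0.02), and these reads were used for counting errors.

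The 3349 genes that averaged 10 TMM or more were tested on the deposited log2 scale with limma 3.58.1 in R 4.3.3 (lmFit, eBayes with trend), with Benjamini-Hochberg adjustment over all 3349 genes and a threshold of 0.05. The fit was tested on simulated reads. Differences on the log2(TMM + 1) scale understate changes of low genes. Sums, exact tests and plots were made in Python (3.11.15) with scipy (1.17.1), pandas (2.3.3), matplotlib (3.10.9) and numpy (2.4.6). Intervals are limma's 95% intervals, and counting errors cover counting only. All 4 columns of values were used.

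Members and lists were chosen with earlier results of these data known. Genes named with the values of every library were all core subunits, the 4 accessory genes per arm with the largest absolute difference, genes with a lower mean in pex5-/- and both ndufab1 copies, and those named beyond this complete the list. The own values of 1 gene are not reported here, although it counts in sums, medians and counts. Alternatives covered the pseudocount, the filter, 3 scalings, voom weights, the lists and each library left out. Gene names of overlapping loci came from a RefSeq table of GRCz12tu, which matched all 34 symbols. The files list a chromosome but no start or end, so none is given.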

Additional observations from a re-analysis of the deposited data

How the results depend on the processing

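Complex I genes called by limma stayed at 0 under every alternative run, and among all genes tested 0 to 12 were called with a library left out (0 under the other alternatives). The median log2 difference of the members was 0.25 with every library at the same total, 0.21 with the same total without the mitochondrial genome and 0.28 with no filter on low values. The summed difference was 0.23 and 0.20 under these scalings. With the same total per library, the medians were 0.14 for the NADH arm, 0.19 for the quinone arm, 0.25 for the distal membrane arm, 0.15 for core and 0.29 for accessory genes. Without the mitochondrial genome they were 0.10, 0.15, 0.21, 0.11 and 0.25 in the same order, and 0.31 for the proximal membrane arm. That scaling shifted the median of all genes by -0.13. The members lay 0.34 above the median of all genes under all 4 scalings, a distance that scaling whole libraries leaves nearly unchanged by construction. With no filter, the distal membrane arm was at 0.26 and the acyl carrier protein at 0.19. The latter is the midpoint of ndufab1b (0.60) and ndufab1a (-0.22, at 2 to 3 reads), and with the filter ndufab1b stands alone. Without the filter, 1 member (ndufab1a) had both pex5-/- libraries below both WT libraries. With log2(TMM + 5), the accessory median was 0.34. Of the members, 11 overlap another gene in GRCz12tu. Left out, an alternative added after seeing the data, 15 of 17 were higher, against 50.5% of all genes tested. Both pex5-/- libraries exceeded both WT libraries for 9 of the 17, against 16.9% of all genes tested, and the median was unchanged at 0.35.

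With a library left out, the median lay between 0.26 and 0.34, the summed difference between 0.29 and 0.37, and the count with a higher mean between 21 and 24. All pex5-/- libraries exceeded all WT libraries for 18 to 20 genes and lay below for 1 to 3. With 3 libraries this condition is looser, and 30.5% to 37.1% of all genes tested lay above and 29.3% to 34.7% below. Medians ranged from 0.21 to 0.35 (NADH arm), 0.20 to 0.29 (quinone arm), 0.27 to 0.58 (proximal), 0.17 to 0.29 (distal), 0.37 to 0.84 (acyl carrier protein), 0.15 to 0.22 (core) and 0.30 to 0.43 (accessory).

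Some single genes turned in direction. Ndufa9a was at -0.061 and -0.10 under the same total with and without the mitochondrial genome. With a library left out, ranges spanned 0 for ndufa7 (-0.78 to 0.29), ndufa9a (-0.25 to 0.32) and ndufb5 (-0.52 to 0.18). They also spanned 0 for ndufb2 (-0.098 to 0.17), ndufs6 (-0.0044 to 0.35) and ndufv1 (-0.64 to 0.023). The causes were not tested. No paired analysis was possible because the WT replicates are numbered 1 and 4 and the pex5-/- replicates 1 and 2, so that the genotypes share 1 number only.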

Other observations

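The ndufa4 paralogues, once counted as complex I and now placed in complex IV in mammals, were dominated by ndufa4l, with 308 and 396 TMM in WT and 443 and 413 TMM in pex5-/- livers. The groups did not overlap, and the log2 difference was 0.29, with an adjusted p of 1.00 in limma. The listed ndufa4 and ndufa4l2a genes had at most 1 read in any library. The gene named ndufc1 in a name table, a proximal membrane arm subunit listed under another symbol and therefore not counted among the 34 genes, was read 6 and 3 times in WT and 8 and 6 times in pex5-/- livers. Among assembly factors below the minimum level, ndufaf3 was read 9 times in each WT library and 21 and 13 times in the mutants. Acad9, which is also a fatty acid dehydrogenase, was read 1 and 2 times in WT and 9 and 4 times in pex5-/- livers, and ecsit 5 and 14 times against 5 and 4 times.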
